A study of Drosophila melanogaster with 9 samples.

Results

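The 8 genes Sema-1a, Sema-1b, Sema-2a, Sema-2b, PlexA, PlexB, Eph and Ephrin were followed through 3 cell populations of the Drosophila melanogaster central brain at 2 stages. They were chosen by name as the semaphorins, plexins and ephrin genes of axon guidance, and all 8 of them have a line among the 16854 genes used. The populations were Kenyon cells (KC), the intrinsic neurons of the mushroom body, olfactory projection neurons (PN), which carry odor signals to them, and cells negative for both labels (double negative, DN). All groups came from flies of 1 genotype, in which GH146:Gal4 drove UAS:tomato over the CyO balancer and MB247:LexA drove LexAop:GFP over the TM2 balancer. GH146 is active in most but not all projection neurons and MB247 in most but not all Kenyon cells, so unlabelled members of both types can be among the DN cells. Brains of both sexes were pooled and their optic lobes removed. They were taken from pupae at 45 h after puparium formation (45 h APF, 1 pooled library for each cell type) or from adults (2 libraries for each cell type, age not given). Values are in FPKM, a fragment count corrected for transcript length and for the number of mapped fragments. For adults the file holds only a mean of the libraries made by the authors, so no standard deviation can be given for any value.

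Semaphorins are secreted or membrane-bound guidance cues, and plexins are their transmembrane receptors. When a semaphorin binds, the plexin acts on the actin cytoskeleton of the growth cone, mostly to repel or stop it, and membrane-bound semaphorins can also signal backwards into the cell that carries them. In the fly antennal lobe Sema-1a in projection neurons and the secreted Sema-2a and Sema-2b around them are known for positioning projection neuron dendrites. Ephrins are membrane-bound ligands of the Eph receptor tyrosine kinases, and the fly has a single gene of each kind, both known from mushroom body axons.

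The columns summed to between 611610 FPKM (DN, adult) and 1055098 FPKM (KC, 45 h APF). Pupal libraries were read for 75 bases and adult libraries for 50 bases on another sequencer, so stage and sequencing cannot be told apart. Among the markers, ey, the eyeless factor of Kenyon cells, was at 228 and 275 FPKM in KC and at most 7.58 elsewhere. The projection neuron factor L (listed as Oaz) was at 66.0 and 172 FPKM in PN and at most 0.255 elsewhere. The Kenyon cell marker Mef2, however, was at 112 FPKM in adult PN. Of 5 projection neuron markers, 4 were at least 2-fold higher in PN than in DN at both stages. The other, vvl, was at 0.860 FPKM in pupal PN against 4.10 in pupal DN, and at 5.74 against 5.24 in adults. The summed level of 8 glial markers was 182 FPKM in pupal KC, 1646 in pupal PN and 683 in pupal DN, and 129, 67.0 and 225 FPKM in the adult populations in the same order. None of the 8 was at 0 in any column, and repo, the defining glial factor, was at 29.9 FPKM in pupal PN. The 6 muscle markers summed to 188 FPKM in pupal DN and to at most 7.09 in the other columns. In sorted pools, fewer cells of a type and less RNA per cell cannot be told apart.

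Among the 8 genes the secreted semaphorin Sema-2a had the highest level in every column, from 28.3 FPKM (DN, adult) to 172 (DN, 45 h APF). At the other end stood Sema-1a and both plexins. They held the lowest level in every column but that of adult PN, where Sema-1b was lowest at 17.6 FPKM. Adult PN was the column with the highest level for 6 of the 8 genes, and all 8 were at 5 FPKM or more there, against 3 in pupal PN. The medians of the 8 levels were 4.70 FPKM in pupal KC, 2.93 in pupal PN and 15.3 in pupal DN, and 21.2, 31.3 and 12.2 FPKM in adult KC, PN and DN. KC and PN thus had their higher median in the adult and DN at 45 h APF.

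**Figure D1:**
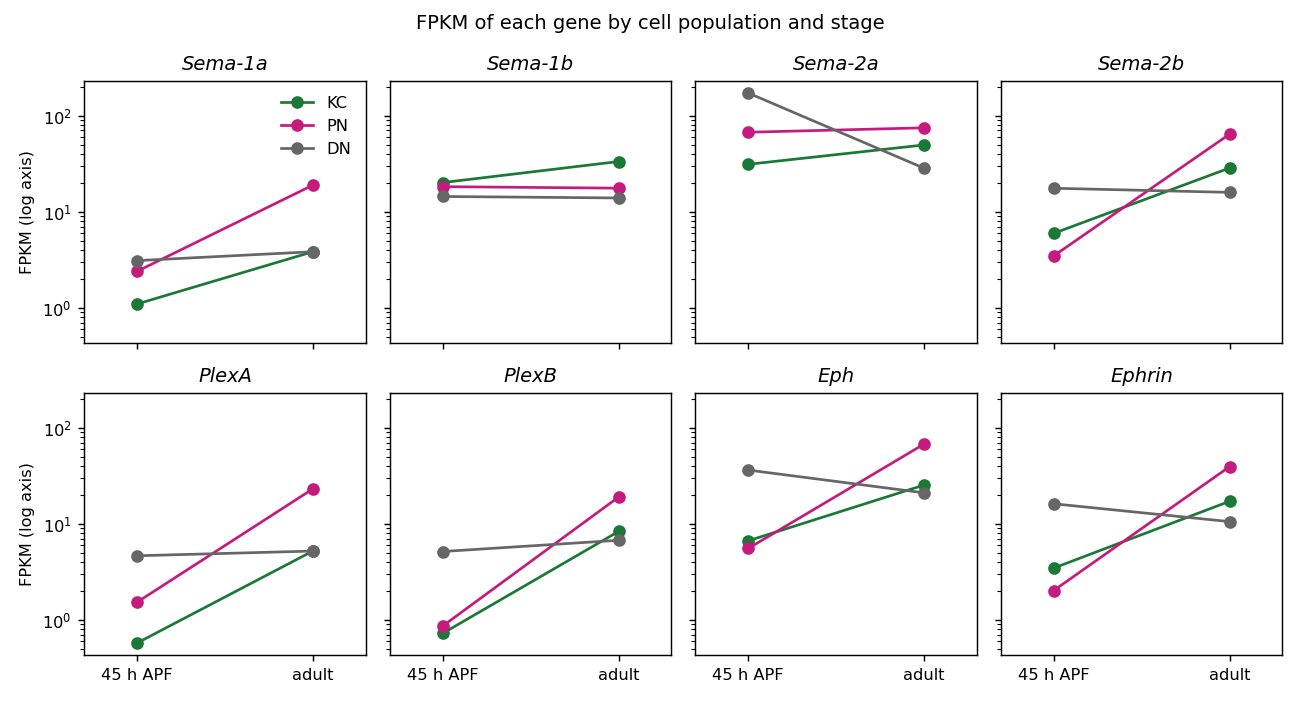
FPKM (log axis) of each of the 8 genes in pupae at 45 h APF and in adults, with 1 line for each of KC, PN and DN; each point is 1 deposited value, a single library at 45 h APF or the authors' mean in the adult. For all genes but Sema-1b the DN point is highest at 45 h APF and the PN point highest in the adult. Adult PN reaches 64.2, 19.0, 67.6 and 39.4 FPKM for Sema-2b, PlexB, Eph and Ephrin.

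Sema-1a (now Sema1a; chromosome 2L, 8542147 to 8672041, build dm6, plus strand) encodes a transmembrane semaphorin that can act as ligand or receptor. Pupal KC held 1.10 FPKM, pupal PN 2.40 and pupal DN 3.10, and adult KC 3.84, adult PN 19.0 and adult DN 3.84 FPKM. The adult PN value stood 4.94-fold above each of the other adult columns, which were level with each other, and 7.91-fold above pupal PN. The noncoding gene CR43855 lies in its introns on the other strand and shares no exon bases with it.

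Sema-1b (now Sema1b; chromosome 2R, 17672839 to 17683499, minus strand) encodes the other transmembrane class 1 semaphorin. Pupal KC had 20.1 FPKM, pupal PN 18.2 and pupal DN 14.4, and the adult ones 33.3, 17.6 and 13.9 FPKM. It was the most even of the 8, with 2.39-fold between its highest and lowest column, and KC was its highest population in pupae and adults alike. The pupal and adult values of PN, and those of DN, differed 1.04-fold.

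Sema-2a (now Sema2a; chromosome 2R, 16500178 to 16533459, plus strand) encodes a secreted semaphorin bound by PlexB. Its level was 31.1 FPKM in pupal KC, 67.1 in pupal PN and 172 in pupal DN, and in adults it was 49.5, 74.6 and 28.3 FPKM. DN was the highest of the 3 populations in pupae and the lowest in adults, where its value was 6.07-fold lower, while PN differed 1.11-fold and KC 1.59-fold in the other direction. No other gene of the 8 was at least 2-fold lower in adults in any population.

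Sema-2b (now Sema2b; chromosome 2R, 16386524 to 16431756, plus strand) encodes the second secreted semaphorin, which is also bound by PlexB. It stood at 5.95 FPKM in pupal KC, 3.47 in pupal PN and 17.5 in pupal DN, and at 28.5, 64.2 and 15.9 FPKM in the adult populations. PN was the lowest population in pupae and the highest in adults, 18.5-fold apart, and the DN values differed 1.10-fold. The genes Menl-1 and Menl-2 lie in its introns on the other strand, share no exon bases with it and were at most 0.155 FPKM in any column.

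PlexA (chromosome 4, 1009895 to 1027101, minus strand), the receptor of the transmembrane semaphorins, was at 0.576 FPKM in pupal KC, 1.53 in pupal PN and 4.65 in pupal DN, and at 5.22, 23.2 and 5.21 FPKM in the adult ones. PlexB (chromosome 4, 32478 to 43778, minus strand), the receptor of the secreted semaphorins, was at 0.724, 0.862 and 5.15 FPKM in the pupal columns and at 8.33, 19.0 and 6.74 FPKM in the adult columns, in the same order. Both receptors were thus highest in DN among pupal columns and in PN among adult ones. The lowest of these values, PlexA in pupal KC, corresponds to about 69 to 139 reads, and PlexB in pupal KC to about 114 to 119. These reads are an inference from the smallest steps between values, which put the pupal libraries at 24.1 M (KC), 29.1 M (PN) and 32.2 M (DN) reads, and they span the shortest to the longest annotated transcript. The adult values of the 2 plexins stood 9.08-fold and 11.5-fold above the pupal ones in KC and 15.1-fold and 22.0-fold above them in PN, against 1.12-fold and 1.31-fold in DN. PlexB shares 388 exon bases (5.50% of its exon length) with the antisense gene CR45124, which was at 2.96 FPKM in pupal KC, 2.79 in pupal PN and 19.3 in pupal DN and in the adult columns at 32.2, 52.8 and 26.0 FPKM. No use of strand in counting is stated, so reads from the shared stretch cannot be told apart.

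Eph (chromosome 4, 610684 to 622470, plus strand), the receptor tyrosine kinase, was at 6.65 FPKM in pupal KC, 5.54 in pupal PN and 36.2 in pupal DN, and at 25.3, 67.6 and 21.0 FPKM in the adult ones. Its ligand gene Ephrin, which ends 30562 bases before Eph starts on the same strand (chromosome 4, 571755 to 580122), was at 3.46, 2.02 and 16.2 FPKM in the pupal columns and at 17.2, 39.4 and 10.5 FPKM in the adult columns. For both genes the order of the populations from highest to lowest was DN, KC, PN in pupae and PN, KC, DN in adults. The adult order of KC and DN rests on ratios of 1.21-fold (Eph) and 1.63-fold (Ephrin), and the pupal order of KC and PN on 1.20-fold and 1.71-fold, for which no replicate spread is at hand.

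Ratios of 2 genes within a column do not depend on how the columns were scaled, so they were compared next. The ratio of Eph to Ephrin stayed between 1.48 (KC, adult) and 2.74 (PN, 45 h APF) while the level of Ephrin spanned 19.5-fold over the columns. The ratio of PlexA to PlexB stayed between 0.627 and 1.77 and was above 1 in PN at both stages and below 1 in KC and DN. The ratio of the secreted semaphorins spanned 16.6-fold. Sema-2a was 5.23 times the level of Sema-2b in pupal KC, 19.3 times in pupal PN and 9.80 times in pupal DN, and 1.74, 1.16 and 1.78 times in the adult populations. The ratio of Sema-1b to Sema-1a was also lower in adults, at 18.3, 7.60 and 4.65 in the pupal columns of KC, PN and DN and 8.66, 0.927 and 3.62 in the adult ones, and adult PN was the only column with more Sema-1a than Sema-1b. With 1 value for each ratio in a column there is no test of these differences.

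**Figure D2:**
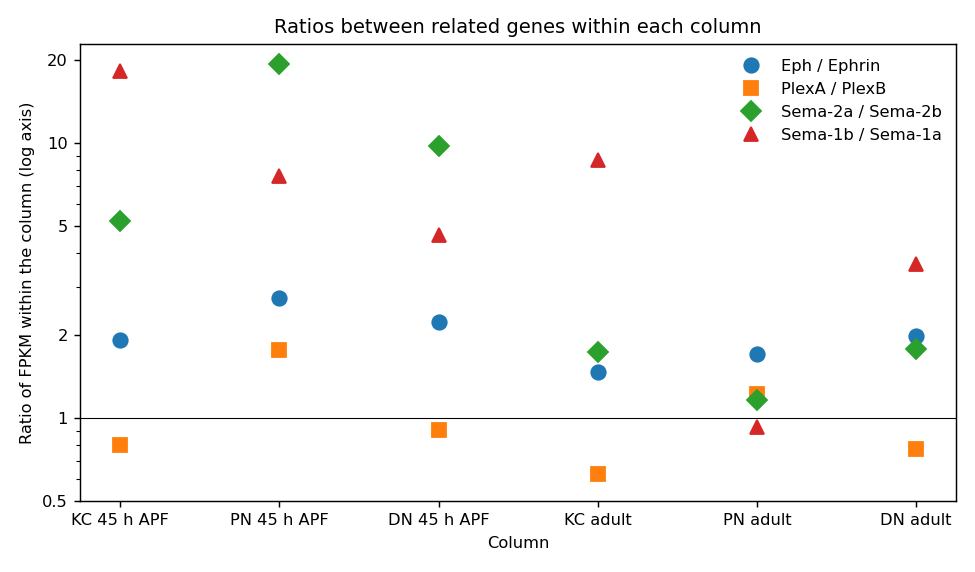
Ratio of the FPKM of 2 related genes within each of the 6 columns (log axis; the line marks a ratio of 1). Eph to Ephrin stays between 1.48 and 2.74, while Sema-2a to Sema-2b lies between 5.23 and 19.3 in the 3 pupal columns and between 1.16 and 1.78 in the 3 adult columns.

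For comparisons between columns, values were taken as log2(FPKM + 1), a scale that understates the differences of low genes, and a difference of at least 1 (2-fold) was counted. With 1 value on each side no difference between 2 columns was tested. The count of members is set beside the share of all kept genes that passed the same fold in the same direction.

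In pupae the DN column stood above both others for most of the 8 genes. KC was below DN in 6 of the 8, where 19.9% of all 8603 kept genes were lower in KC, and above it in none, where 9.54% were higher. The share lower was 24.6% with the columns rescaled to the same sum (TPM scale), which moves the median of all genes by -0.22, 22.9% with upper quartile scaling and 14.5% with quantile normalization, and the share higher 5.94%, 6.33% and 12.4%. The differences were -2.43 for Sema-2a, -2.28 for Eph, -1.94 for Ephrin, -1.84 for PlexA, -1.83 for PlexB and -1.42 for Sema-2b, and Sema-1a lay just short of the count at -0.97. PN was below DN in 6 genes, where 9.36% of genes were lower, and above it in none, where 7.31% were higher. Here Eph and Ephrin were both at -2.51, Sema-2b at -2.05, PlexB at -1.72, Sema-2a at -1.35 and PlexA at -1.16. Both sets of differences use the same DN column, so they are not independent of each other. With a pseudocount of 5 FPKM each count of 6 became 4, without the plexins. The muscle markers were also highest in pupal DN, at 188 FPKM against 7.09 in KC and 1.41 in PN, and so were the summed neuronal markers (elav, nSyb, brp, para and Syt1), at 422 FPKM against 199 and 260. Of the 8 glial markers 5 were lower in pupal KC than in DN, and 5 were higher in pupal PN than in DN and 1 (wrapper) lower. The part of these markers in the members' differences was not tested.

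Between pupal KC and PN, which later form synapses with each other, only Sema-2a was counted on this scale. Its difference was -1.08 (lower in KC), where 18.1% of genes were lower in KC, and none of the 8 was counted as higher, where 9.07% were. The ratios of the FPKM values themselves, PN to KC, were 2.66-fold for PlexA, 2.19-fold for Sema-1a and 2.16-fold for Sema-2a, and with a pseudocount of 0.1 FPKM all 3 were counted. With a pseudocount of 5 FPKM none was. With quantile normalization 14.1% of genes were lower and 11.5% higher, and Ephrin (1.36) and Sema-2b (1.25) were counted as higher in KC.

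In the adult the PN column stood apart. PN was at least 2-fold above DN in 7 of the 8 genes, all but Sema-1b, where 16.9% of 8515 genes were higher in PN, and below it in none, where 9.49% were lower (14.3% and 14.6% on the TPM scale). The differences ran from 1.37 for Sema-2a and PlexB to 2.04 for Sema-1a. KC was below PN in 6 genes, where 19.9% of genes were lower in KC, and above it in none, where 12.1% were higher (17.1% and 17.3% with quantile normalization). Sema-1a (-2.04) and PlexA (-1.96) led, and Sema-2a (-0.58) and Sema-1b (0.88, higher in KC) were not counted. Both sets of differences use the same PN column. KC was above DN in Sema-1b alone, by 1.20, where 8.39% of genes were higher, and below it in none, where 13.1% were lower (5.94% and 17.5% on the TPM scale, on which Sema-1b was at 0.99 and not counted). The summed level of the 5 neuronal markers was also highest in adult PN, at 3305 FPKM against 1046 in KC and 921 in DN, and its part in these differences was not tested.

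**Figure D3:**
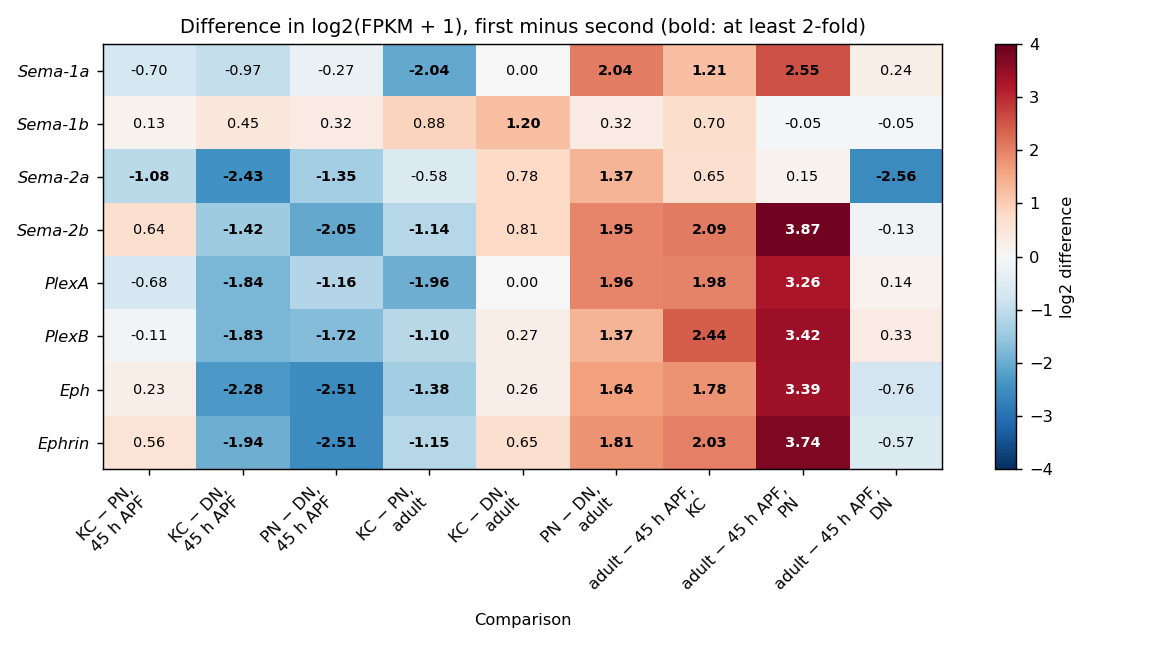
Differences in log2(FPKM + 1) for the 8 genes (rows) in 9 comparisons (columns), first minus second; red is higher in the first, blue lower, and bold numbers are at least 2-fold. The blue block for pupal KC and PN against DN covers Sema-2a, Sema-2b, the plexins, Eph and Ephrin. The red block for adult PN against DN and for PN between stages covers the same genes and Sema-1a (2.04 and 2.55). The exception is Sema-2a, which differed by 0.15 between stages in PN.

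Between the stages, Sema-1a, Sema-2b, PlexA, PlexB, Eph and Ephrin were at least 2-fold higher in adult than in pupal KC, and none of the 8 was lower. Of all 8867 genes, 17.9% were higher in adult KC and 22.6% lower. These 6 genes were also the ones counted as higher in adult PN, where 23.3% of genes were higher and 30.8% lower. The TPM scale moves the median of all genes up by 0.41 in KC, 0.39 in PN and 0.47 in DN. On it the shares were 26.3% and 11.1% in KC, with all 8 members higher, and 29.9% and 21.1% in PN, with 6 higher. With upper quartile scaling they were 22.2% and 14.5% in KC, with 7 members higher. The stage differences in PN were 3.87 for Sema-2b, 3.74 for Ephrin, 3.42 for PlexB, 3.39 for Eph, 3.26 for PlexA and 2.55 for Sema-1a, and in KC they ran from 1.21 (Sema-1a) to 2.44 (PlexB). All 5 neuronal markers were at least 2-fold higher in adult KC too, with sums of 199 FPKM in pupae and 1046 in adults, and their part in these differences was not tested.

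In DN the stages differed in Sema-2a alone, which was lower in adults by a difference of -2.56, where 21.0% of genes were lower. No gene of the 8 was counted as higher, where 11.8% of genes were. On the TPM scale 12.3% of genes were lower and 23.4% higher, with upper quartile scaling 15.9% and 16.0%, and with quantile normalization 16.7% and 16.1%, and the members' counts of 1 and 0 did not change. The glial markers were lower in adult than in pupal PN (67.0 against 1646 FPKM) and the neuronal markers higher (3305 against 260 FPKM), and in DN 4 of 5 neuronal markers were higher in adults, 7 of 8 glial markers lower and the muscle sum 188 FPKM in pupae against 4.34. The part of these markers in the stage differences was not tested.

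Sema-2a, Sema-2b, PlexA, PlexB, Eph and Ephrin, 6 of the 8, were at least 2-fold lower in pupal PN and at least 2-fold higher in adult PN than in DN, as were 298 of 7778 genes kept at both stages (3.83%). Ephrin had the widest gap of the 8, from -2.51 to 1.81. No gene of the 8 had such a pair of differences for KC against PN (0.720% of genes) or KC against DN (0.951%). The neuronal markers elav (-1.34 in pupae, 1.31 in adults) and Syt1 (-2.08 and 1.89) had it between PN and DN, as did the partner genes Vap-33A (-3.10 and 2.12) and Pka-R2 (-1.73 and 2.96). The glial marker alrm differed in the other direction, at 1.40 and -3.93. The part of these markers in the members' differences was not tested, and the pairs of differences have no test, since each side is 1 value.

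**Figure D4:**
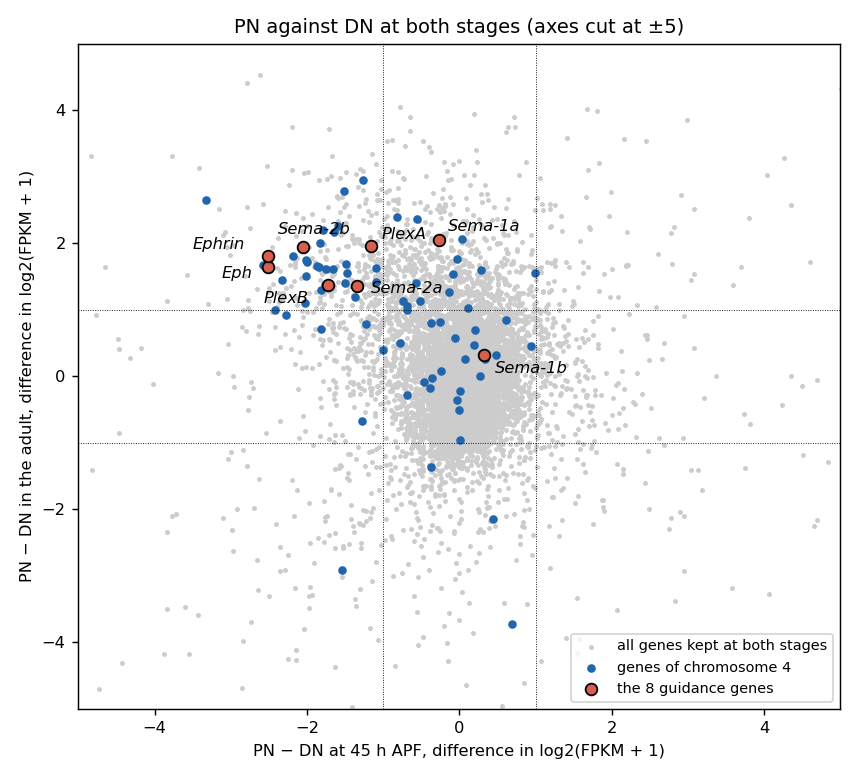
Difference in log2(FPKM + 1) between PN and DN in pupae (x axis) and in adults (y axis) for 7778 genes in grey, 76 genes of chromosome 4 in blue and the 8 guidance genes in red; dotted lines mark 2-fold, and 39 genes lie beyond the axes. Of the 8, 6 lie in the upper left field, which holds 31 of the 76 genes of chromosome 4.

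Cell type effects shared by pupae and adults, and the stage effect shared by the populations, were tested with limma over the 6 columns, with terms for cell type and stage and no interaction, on 8867 genes. With 2 residual degrees of freedom, the error in this fit is the part of the cell type differences that was not alike in pupae and adults, and it holds no variation between animals. None of the 8 genes passed an adjusted p of 0.05 in limma for KC against PN, KC against DN or PN against DN, and none had an unadjusted p under 0.05. Of all genes, 0.789%, 0.756% and 0.0226% passed the adjusted threshold and 15.5%, 11.0% and 3.85% had an unadjusted p under 0.05. For the stage, where 25.0% of genes passed, none of the 8 did, and 3 had an unadjusted p under 0.05, where 43.0% of genes had one. These were PlexB, with an adult minus pupal difference of 2.06 (SE 0.65, limma adjusted p = 0.064), PlexA with 1.79 (SE 0.65, limma adjusted p = 0.0885) and Sema-2b with 1.94 (SE 0.73, limma adjusted p = 0.0963). The plexin values were higher in adults in all 3 populations, and that of Sema-2b in KC and PN. Without the adult DN column, the stage effect comes from KC and PN alone, since DN is left with 1 column. That fit therefore cannot test a stage effect shared by all 3 populations. In DN itself the adult minus pupal differences of Sema-2b, Eph, PlexB, Ephrin and PlexA ran from -0.76 (Eph) to 0.33 (PlexB). On the TPM scale PlexA and PlexB passed in limma as higher in adults, with adjusted p-values of 0.0492 and 0.0365. On that scale 1425 of all 8867 genes passed as higher.

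The 4 genes PlexA, PlexB, Eph and Ephrin all lie on chromosome 4, the small and mostly heterochromatic autosome of the fly, which holds 0.97% of the genes in the fit, so they were set beside its other genes, a comparison chosen after their values were seen. Of 77 genes of chromosome 4, 74.0% were at least 2-fold lower in pupal KC and 50.6% in pupal PN than in DN, against 19.9% and 9.36% of all genes. In the adult 57.5% of 87 were higher in PN than in DN, against 16.9% of all genes. The chromosome's median differences were -1.69 (KC against DN, pupae), -1.0 (PN against DN, pupae) and 1.28 (PN against DN, adults). PlexA and PlexB were within 0.16 of the first of these, and PlexA within 0.16 of the second. From the first, Eph differed by -0.59 and Ephrin by -0.25, and from the second PlexB differed by -0.72. The distances from the third were 0.68 for PlexA, 0.09 for PlexB, 0.36 for Eph and 0.53 for Ephrin. Eph and Ephrin lay further out than the second, both at -2.51, and 3.90% and 5.19% of the chromosome's genes were at or below them. All of these medians include the members.

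All 8 genes also fall among the 20% of genes with the longest exons, 3140 bases or more in all. Such long genes outside chromosome 4 had medians of -0.27, -0.08 and 0.53 in the same 3 comparisons, and those on it -1.80, -1.29 and 1.52. The pair of opposite differences between PN and DN was found in 31 of 76 genes of chromosome 4 (40.8%), in 201 of 2389 long genes elsewhere (8.41%) and in 62 of 5253 shorter genes elsewhere (1.18%). Sema-2a and Sema-2b, which had it too, lie on chromosome 2R, whose long genes had a median difference between PN and DN of -0.05 in pupae and 0.50 in adults. The part of chromosome or length in the members' differences was not tested.

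**Figure D5:**
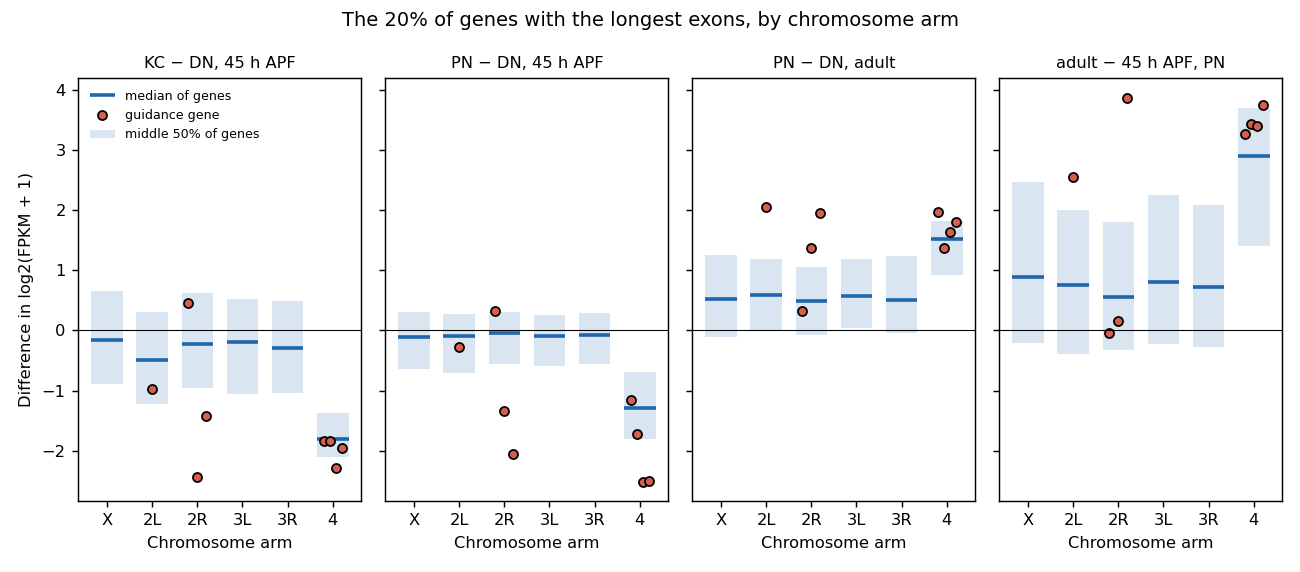
Differences in log2(FPKM + 1) in 4 comparisons for the 20% of genes with the longest exons, by chromosome arm; the line is the median, the box the middle 50% of the genes and the red points are the 8 guidance genes. The medians of chromosome 4 (-1.80, -1.29, 1.52 and 2.89) lie outside the boxes of the other arms in each of these comparisons.

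A list of 18 other genes of the pathways was read alongside. Of the 17 in the fit, 3 were lower in the adult in limma, where 17.0% of all genes were, and none higher, where 8.03% were. On the TPM scale 5 passed as higher (Abl, Mical, Pka-R2, RhoGAPp190 and SelR), where 1425 of all 8867 genes did. None passed between cell types, where 3 had an unadjusted p under 0.05 for KC against DN (11.0% of all genes), 3 for KC against PN (15.5%) and 1 for PN against DN (3.85%), and 10 had one for the stage (43.0%). The first of the 3 that fell was otk, a plexin coreceptor known as off-track, at 28.6, 53.1 and 35.4 FPKM in pupal KC, PN and DN and 3.17, 6.93 and 3.76 in the adult ones. Its relative otk2 was at 19.7, 23.4 and 17.0 FPKM against 1.26, 4.43 and 6.82, and Sema-5c, a transmembrane semaphorin, at 1.14, 4.11 and 5.01 FPKM against 0.0192, 0.00796 and 0.0672. The otk gene fell by 2.84 (SE 0.32, limma adjusted p = 0.00718), otk2 fell by 2.19 (SE 0.48, limma adjusted p = 0.0261) and Sema-5c fell by 1.97 (SE 0.52, limma adjusted p = 0.0422), each lower in all 3 populations. With no filter on low values none of the 3 passed in limma (adjusted p = 0.114, 0.191 and 0.166). Without the pupal PN or the pupal DN column none passed either, with adjusted p-values for otk of 0.0756 and 0.0583 in limma. Sema-5c passed in no fit that left out a column (limma adjusted p from 0.0604 to 0.161), nor with a pseudocount of 5 FPKM (0.0715), on the TPM scale (0.0506) or with upper quartile scaling (0.0536).

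Apart from otk, otk2 and Sema-5c, no gene of the list passed in limma with the settings used throughout, and some did under others. Mical, the actin-oxidising enzyme that PlexA acts through, was highest in KC at both stages, at 17.5, 9.63 and 6.47 FPKM in pupal KC, PN and DN and 40.3, 18.6 and 11.2 in the adult ones, so the pupal KC column, with the least PlexA, had the most Mical of the pupal columns. Pka-R2, a regulatory subunit of protein kinase A, was at 42.2, 2.15 and 9.47 FPKM in pupae and 198, 124 and 15.1 in adults. Its anchor nvy, a PlexA partner, was lowest in KC, at 1.34, 14.3 and 33.0 FPKM and 2.62, 7.87 and 29.1. Its limma adjusted p for KC against DN was 0.0589, and 0.0463 with a pseudocount of 0.1 FPKM, 0.0447 with a filter of 5 FPKM, 0.034 on the TPM scale and 0.041 without adult PN. For the stage Pka-R2 passed in limma as higher in adults with the filter of 5 FPKM (adjusted p = 0.0416). The GTPase gene Rac2 passed as lower in limma with a pseudocount of 0.1 FPKM (adjusted p = 0.0483). Fits without an adult column cannot test a stage effect shared by all 3 populations, so only the stage differences in KC, PN and DN are given. They were 2.20, 5.31 and 0.62 for Pka-R2 and 2.23, 5.03 and -0.20 for Vap33. For Rac1 they were -0.18, -1.49 and -1.95, and for Rac2 -0.66, -4.10 and -2.31. RhoGAPp190, which binds Sema-1a on its inner side, was at 11.2, 57.6 and 13.6 FPKM in adult KC, PN and DN. It was highest in PN like Sema-1a, and so were all 5 neuronal markers. Of 15 kept genes of the list, 8 were at least 2-fold higher in adult PN than in DN, where 16.9% of genes were. Lower was 1, where 9.49% were. Vap33 (listed as Vap-33A), whose secreted domain is a ligand of Eph, was at 9.15, 4.65 and 47.6 FPKM in pupae and 46.5, 184 and 41.4 in adults. Its order of columns within each stage was that of Eph and Ephrin, and also that of the neuronal markers elav and Syt1. Exn, the ephexin that acts below Eph, stayed between 11.2 and 19.4 FPKM in all columns. Gyc76C, a receptor guanylyl cyclase of PlexA signalling, was at most 0.092 FPKM in any column.

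The slit, robo and netrin genes and others of that set of guidance cues and receptors were counted in the same comparisons. Of 10 such genes, 8 had a lower value in pupal KC than PN, by 2-fold or more, against 1 of the 8 semaphorin, plexin and ephrin genes and 18.1% of all genes. In pupal PN 1 was lower than in DN, against 6 of the 8 and 9.36% of all genes. The medians were -1.74 and 0.21 in these comparisons, against 0.01 and -1.53 for the 8. In pupal KC 7 of the 10 were lower than in DN, against 6 of the 8 and 19.9% of all genes. In adult KC 5 of the 10 were lower than in DN, against 0 of the 8 and 13.1% of all genes. Higher there was 1 of each set (8.39%). In adult PN 2 of the 10 were higher than in DN, against 7 of the 8 and 16.9%. In DN 1 of each set was lower in adults than in pupae (21.0%). Between the stages 2 of the 10 were higher in adult KC, against 6 of the 8 and 17.9% of all genes. In adult PN 1 was higher, against 6 and 23.3%, and 3 were lower, against 0 of the 8 and 30.8%. Between adult KC and PN, 4 of the 10 were lower in KC, against 6 of the 8 and 19.9% of all genes. Higher in KC was 1 of the 10, against 0 of the 8 and 12.1%. In limma 2 of the 10 were lower in KC than in PN, where 0.485% of all genes were, and 1 lower in KC than in DN, where 0.462% were. The difference between the sets was not tested.

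The 3 genes nearest to each of the 8 in pattern were found by the root mean square distance between centred log2(FPKM + 1) profiles over the 6 columns, which share the same libraries. Among the nearest to Eph were 4E-T (0.10) and Ephrin (0.21). The nearest to Ephrin was also 4E-T (0.16), followed by Sema-2b (0.20) and Fmr1 (0.21). PlexB was closest to CR44024 (0.14), CG31998 (0.16) and Asator (0.17), all on chromosome 4. For PlexA the nearest were sd (0.17), tws (0.18) and Nipped-B (0.18), and for Sema-2b uex (0.14), CG5065 (0.15) and CG31510 (0.19). Sema-1a lay nearest to CG5151 (0.10), RhoGAP102A (0.16) and CG31224 (0.16), and Sema-1b to CG3308 (0.12), CR46064 (0.15) and CG11399 (0.16). Sema-2a had no gene as close, with Ptp69D (0.26), a receptor tyrosine phosphatase, Rho1 (0.31), a small GTPase, and CG12402 (0.31) nearest. Of the 12 places listed for the 4 members on chromosome 4, 6 are held by genes of that chromosome, which holds 0.97% of the genes in the fit. These are the 3 places of PlexB, 4E-T counted for both Eph and Ephrin, and the member Ephrin itself. The nearest genes of PlexA all lie on other chromosomes.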

How the data were processed

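PolyA RNA of sorted cells was sequenced in 9 libraries, 3 at 45 h APF and 2 per cell type in the adult, made with SmartSeq V2 and planned at 25 M reads each, per the labels' protocols. The authors deposited FPKM values, with adult replicates averaged by them per the file headers. The submitters' processing notes name TopHat, Cufflinks and dm6 and give no version of either tool. No replicate values were used, and depth behind the adult means is unknown. Of 16859 lines, 5 with a date as gene name were left out. Names were matched to Ensembl release 115 (dm6 coordinates), 16699 genes in all.

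Values were analysed as log2(FPKM + 1) where the mean reached 1 FPKM over the 3 columns of a stage or, for stage differences and the fit, over all 6. All 8 members passed. Limma 3.58.1 (R 4.3.3) was run with a mean-variance trend and Benjamini-Hochberg adjustment over all genes. It was tried on simulated data with independent noise and no interaction of cell type and stage. That trial cannot show how the fit performs where cell type differences change between stages. The members and lists were chosen with earlier results of these data known. The text names all members, pathway genes past 2-fold or the limma threshold (not all of them), and the 3 nearest genes of each member, of which 1 is not reported here. Exn and Gyc76C were named after their values were seen. Alternatives were pseudocounts of 0.1 and 5, other filters (none, 5 FPKM), TPM, upper quartile and quantile scaling, no trend, and each column left out. Whole reads were inferred from steps between values of single-transcript genes, for which 93.6% to 96.3% lay within 0.1 of a whole read, with 200 bases taken off each transcript length. P-values do not measure variation between animals.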

Additional observations from a re-analysis of the deposited data

Results flagged for a closer look

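The difference between PN and DN had opposite signs at the 2 stages, at least 2-fold lower in PN at 45 h APF and at least 2-fold higher in the adult, for 6 of the 8 genes. The adult difference minus that at 45 h APF was 4.31 for Ephrin, 4.15 for Eph, 4.0 for Sema-2b, 3.12 for PlexA, 3.09 for PlexB and 2.71 for Sema-2a, on the log2(FPKM + 1) scale. With 1 value per population and stage this difference was not tested.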

How the results depend on the processing

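Of 40 member differences counted as at least 2-fold, none changed sign under another pseudocount, filter or scaling, and 8 came under 2-fold with a pseudocount of 5 FPKM. With a pseudocount of 0.1 FPKM 3 genes were lower in KC than in PN at 45 h APF, and with 5 FPKM 0, against 1. Quantile normalization gave 2 genes higher in KC there, against 0, and the TPM scale 0 in place of 1 higher in adult KC than DN. In limma the genes called for KC against PN, KC against DN, PN against DN and the stage (70, 67, 2 and 2217) became 28, 17 and 1 with a pseudocount of 5 (first 3), 0 in all 4 with no filter (1632, 1379, 770 and 3577 at an unadjusted p under 0.05), 43 and 36 with quantile normalization (first 2) and 33, 38 and 1 without the mean-variance trend (first 3). Leave-one-out fits gave 0 to 51 genes for KC against PN, 0 to 143 for KC against DN, 0 to 7 for PN against DN and 0 to 1597 for the stage. For the stage these were 451, 22 and 0 without pupal KC, PN and DN (3240 at an unadjusted p under 0.05 in the last) and 1124, 599 and 1597 without adult KC, PN and DN. Members called for the stage became 2 on the TPM scale and 0 to 5 in the leave-one-out fits. Where a count changed, the cause was not tested. Sema-5c lost its stage call with a pseudocount of 5, on the TPM scale and with upper quartile scaling. No paired analysis was possible because the adult replicates are averaged and each pupal group has 1 library. Of the members' pupal values, those of the plexins in KC rest on the fewest reads.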
